A study of Mus musculus with 12 samples.

Results

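The genes described here encode the oxidases and the nitric oxide synthase of the gut epithelium and their partner proteins: Duox1, Duox2, Duoxa1, Duoxa2, Nox1, Noxo1, Noxa1, Cyba, Cybb and Nos2. They were taken by gene symbol, 10 of the 35688 genes in the table, and the abundances of all transcripts of a gene were summed in each library. RNA came from the full-thickness colon of 2-week-old mice in 2 genotypes, with 6 Il10-/- Tnfr1-/- mice and 5 Il10-/- mice. Interleukin 10 restrains inflammation in the gut. Both genotypes lacked its gene, Il10, so no mouse with a normal Il10 gene serves as baseline. The first genotype lacked a receptor of the cytokine TNF as well (label Tnfr1, gene symbol Tnfrsf1a). Litter, sex, batch and the cells or exons touched by either deletion are not given in the labels.

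Members of this group work as complexes. DUOX2 and DUOX1 are dual oxidases that release hydrogen peroxide at the apical face of epithelial cells, and each needs a maturation factor, DUOXA2 or DUOXA1, to leave the endoplasmic reticulum. NOX1 makes superoxide in the colon epithelium together with p22phox, encoded by Cyba, the organizer NOXO1 and the activator NOXA1. Cybb encodes NOX2, the oxidase of phagocytes, which also needs p22phox. Nos2 encodes inducible nitric oxide synthase, which makes nitric oxide from arginine and is known to be induced by inflammatory cytokines in epithelial cells and macrophages.

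The dual oxidase genes lie side by side on chromosome 2 of mm10 as 2 divergent pairs of an enzyme and its maturation factor, within 68726 bp. Duox2 lies at chr2:122279247-122298449 on the minus strand and Duoxa2 at chr2:122298900-122302885 on the plus strand, while Duoxa1 lies at chr2:122302191-122313730 on the minus strand and Duox1 at chr2:122315672-122347972 on the plus strand. The start sites that RefSeq gives to Duox2 and Duoxa2 are 673 bp apart, and the outer ends of the GENCODE genes 451 bp apart. That GENCODE end of Duox2 belongs to Duox2-203, which has no abundance here. The start of Duox2-201 lies at -735 bp from that of Duoxa2. For Duox1 and Duoxa1 the distance is 1942 bp by RefSeq starts and by outer GENCODE ends. The promoter windows of the 4 genes are printed because the Duox2 and Duoxa2 transcripts varied together from mouse to mouse, with the windows of the neighbouring pair beside them. Duox1 was too low for the like to be read in that pair. Each window runs 5′ to 3′ on the gene's own strand, from 250 bases before to 50 bases after the RefSeq start on GRCm38.p6. The windows are chr2:122298178-122298477 (minus) for Duox2, chr2:122298650-122298949 (plus) for Duoxa2, chr2:122315422-122315721 (plus) for Duox1 and chr2:122313681-122313980 (minus) for Duoxa1. Capitals mark a match to a searched motif.
Duox2: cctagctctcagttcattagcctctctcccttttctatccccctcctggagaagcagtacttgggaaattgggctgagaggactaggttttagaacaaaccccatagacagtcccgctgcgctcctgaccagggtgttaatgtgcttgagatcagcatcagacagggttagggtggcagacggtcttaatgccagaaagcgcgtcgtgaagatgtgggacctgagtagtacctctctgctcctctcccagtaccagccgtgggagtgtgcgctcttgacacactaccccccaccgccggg
Duoxa2: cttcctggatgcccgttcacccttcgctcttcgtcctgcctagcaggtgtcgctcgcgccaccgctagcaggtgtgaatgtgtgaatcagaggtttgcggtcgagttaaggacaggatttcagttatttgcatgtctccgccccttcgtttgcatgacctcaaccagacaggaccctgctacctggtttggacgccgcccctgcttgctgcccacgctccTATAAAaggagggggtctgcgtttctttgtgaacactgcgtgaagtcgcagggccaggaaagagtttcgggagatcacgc
Duox1: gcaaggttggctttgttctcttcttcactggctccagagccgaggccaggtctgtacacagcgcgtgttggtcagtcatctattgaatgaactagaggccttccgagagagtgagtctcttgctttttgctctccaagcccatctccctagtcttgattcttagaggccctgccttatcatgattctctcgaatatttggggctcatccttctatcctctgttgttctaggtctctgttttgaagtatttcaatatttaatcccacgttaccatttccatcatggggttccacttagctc
Duoxa1: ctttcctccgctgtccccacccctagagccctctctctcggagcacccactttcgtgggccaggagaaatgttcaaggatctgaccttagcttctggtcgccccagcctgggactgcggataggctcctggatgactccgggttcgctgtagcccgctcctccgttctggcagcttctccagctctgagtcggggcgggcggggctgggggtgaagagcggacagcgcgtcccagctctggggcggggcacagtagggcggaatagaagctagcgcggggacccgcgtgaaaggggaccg
The searched motifs were the TATA box TATAAA, the NF-kB letters, GGGA, any 4 bases and CC, and the STAT letters TTCNNNGAA, on both strands, and the last reads the same on both. Among 32851 RefSeq promoter windows of this length, 13.6% held the TATA box, 20.7% the NF-kB letters and 8.3% the STAT letters. In the windows of the Duox cluster the single match was the TATA box of Duoxa2, at positions -30 to -25 from the start. GC content was 55.3% for Duox2, 56.7% for Duoxa2, 46.7% for Duox1 and 65.7% for Duoxa1. Of the 10 genes, 9 had a RefSeq window. Outside the cluster the NF-kB letters were found once each for Nox1, from -92, Cyba, from -231, Cybb, from -76, and Noxa1, from -249 on the opposite strand. These matches describe letters and were not tested as binding sites.

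Values are the deposited abundances, which behave as abundances per transcript length, scaled between libraries. They are not counts, and how deeply each library was sequenced is unknown. The libraries summed to between 804109 and 1378971, with 41.7 to 55.1% of transcripts at 0. Tnfrsf1a was at 12.0 to 17.0 in Il10-/- Tnfr1-/- colons and 30.6 to 78.1 in Il10-/- colons, without overlap (limma, adjusted p = 0.123). Il10 transcripts were still listed, at 3.27 to 7.23 in Il10-/- Tnfr1-/- colons and 9.06 to 22.9 in Il10-/- colons. Summed epithelial markers were at 8410 to 26660 in Il10-/- Tnfr1-/- colons and 11260 to 24310 in Il10-/- colons, and 10 of the 12 had a lower mean log2 value in Il10-/- Tnfr1-/- colons. All 10 smooth muscle markers were higher in Il10-/- Tnfr1-/- colons, 9 at an unadjusted limma p under 0.05, with sums of 829 to 8021 against 185 to 3506 in Il10-/- colons, and all 6 fibroblast markers were higher as well, 2 of them at that level. In such bulk RNA, fewer cells of a type and less RNA per cell cannot be told apart.

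Of the 10 genes, 7 had a value over 1 in at least 6 libraries and were tested with limma on log2(value + 0.5), together with all 13293 genes that passed this filter. None of the 7 had an adjusted p under 0.05, and neither did any of the 13293 genes (0%). At an unadjusted p under 0.05, 3 of the 7 (Duox2, Nos2 and Noxo1) were lower in Il10-/- Tnfr1-/- colons and 0 were higher. Over all genes 478 were lower (3.6%) and 639 higher (4.81%) at that level. With the smooth muscle score or the first digit of the title in the model, the 3 became 1, Duox2. Then 4 of the 7 members were lower, and both counts were the same in titles that start with 1. Each other first digit occurred in only 1 genotype, so the first-digit fit takes its genotype difference from titles that start with 1. Both give the same fold changes. Over all genes, either direction, 611 of 13293 had an unadjusted limma p under 0.05 with the smooth muscle score. The like counts were 238 of 13293 with the first digit and 138 of 13279 in titles that start with 1. The median of all genes was -0.04 in each. With the smooth muscle score the unadjusted limma p was 0.0911 for Nos2 and 0.234 for Noxo1. Without a covariate and over all libraries, 6 of the 7 had a lower mean in Il10-/- Tnfr1-/- colons, against 44.8% of all genes. Nox1 had a higher one. The median log2 fold change, Il10-/- Tnfr1-/- minus Il10-/-, was -0.64 for the 7 genes and 0.05 for all genes. For no member did the genotypes separate without overlap, as they did for 0.587% of all genes. Among single transcripts, 18 of the members were tested, of which 12 were lower, 4 lower at an unadjusted limma p under 0.05 and 0 higher at that level. Of all 26074 transcripts tested 46.5% were lower, 2.78% lower and 3.53% higher at that level, and 0% passed the adjusted threshold.

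**Figure D1:**
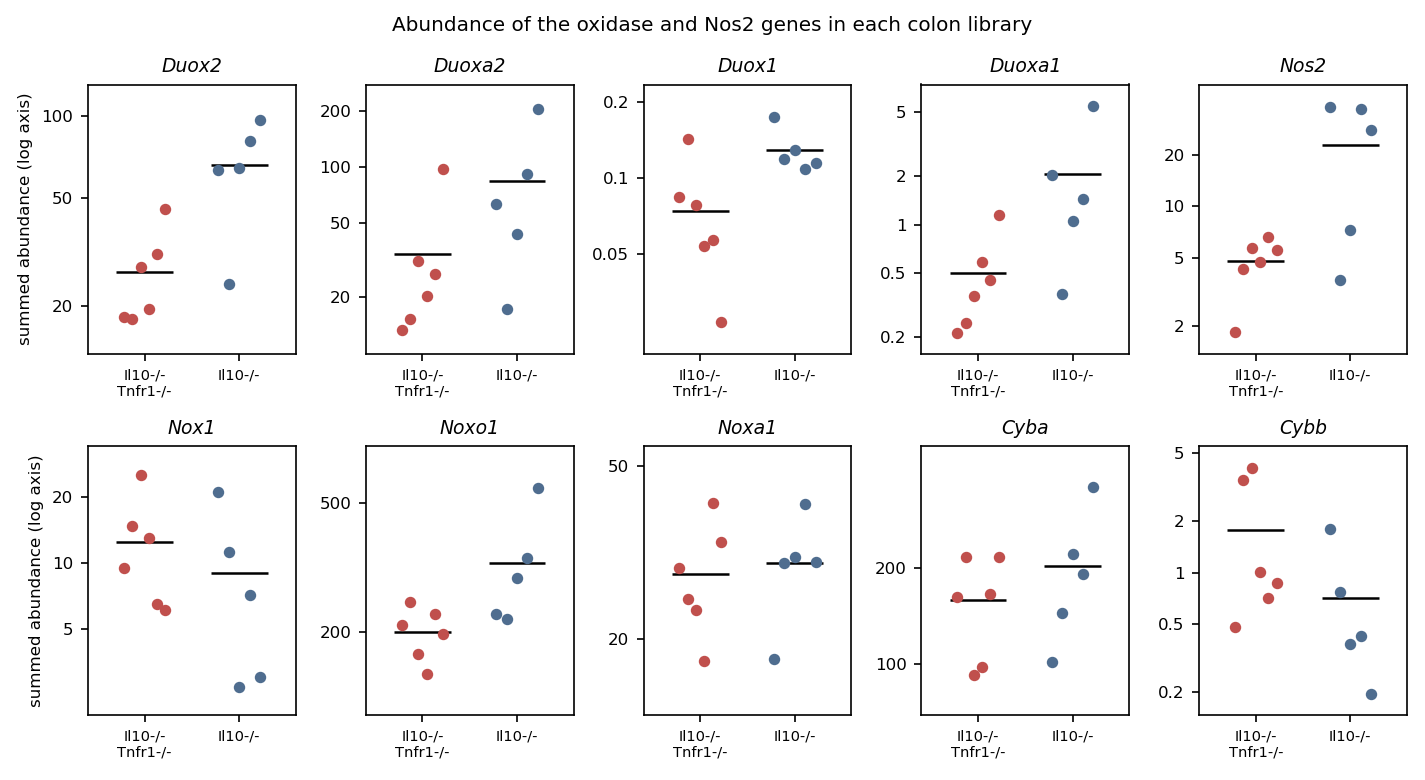
Abundance of each gene (log axis, deposited scale) in 6 Il10-/- Tnfr1-/- and 5 Il10-/- colon libraries, with 1 point per mouse and a bar at the mean. For Duox2 and Nos2, 4 of the 5 Il10-/- points lie above all 6 Il10-/- Tnfr1-/- points, and for Nox1, Noxa1 and Cyba the genotypes overlap through most of their range.

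By median abundance over the 11 libraries, Noxo1 (228) and Cyba (166) stood highest, followed by Duox2 (31.1), Duoxa2 (31.0) and Noxa1 (29.9). Nox1 (9.51) and Nos2 (5.74) came next, then Cybb (0.772), Duoxa1 (0.585) and Duox1 (0.109). Neighbours in this order overlapped in range over the libraries, except Duoxa1 and Duox1. Within libraries some neighbours kept a fixed order even so. Cyba was above Duox2, and Nos2 above Cybb, in all 11 libraries, whereas Duox2 was above Duoxa2 in 5 and Nox1 above Nos2 in 6. The genes that encode 2 partners of NOX1, Noxo1 and Cyba, were thus listed far above Nox1 itself on this per-length scale, with the Noxo1 sum resting on short noncoding transcripts described further on.

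Duox2, the dual oxidase of the colon, was lower in Il10-/- Tnfr1-/- colons, at 17.8, 23.6 and 45.3 (lowest, median and highest of 6), against 63.0, 24.0, 64.1, 80.4 and 96.3 in Il10-/- replicates 1, 2, 3, 5 and 6. Only Il10-/- replicate 2 fell within the Il10-/- Tnfr1-/- range, and 3 Il10-/- Tnfr1-/- colons were below every Il10-/- colon. The means were 26.6 ± 10.7 (SD, n = 6) in Il10-/- Tnfr1-/- colons and 65.6 ± 26.9 (SD, n = 5) in Il10-/- colons. On the log2 scale the fold change was -1.23 (SE 0.349, limma, unadjusted p = 0.00398, adjusted p = 0.535). Without Il10-/- replicate 2 it was -1.56, with a limma adjusted p of 0.142. The full-length coding transcript Duox2-201 carried 94.1% of the Duox2 signal, and the remainder was on a retained-intron transcript.

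Duoxa2, the maturation factor of DUOX2, was at 13.2, 23.3 and 97.4 (lowest, median and highest) in Il10-/- Tnfr1-/- colons and at 63.4, 17.1, 43.3, 91.7 and 206 in the Il10-/- colons in the same replicate order. Il10-/- replicate 2 was again the lowest of its genotype, while Il10-/- Tnfr1-/- replicate 6 stood within the Il10-/- range. The means were 33.9 ± 31.8 (SD, n = 6) and 84.2 ± 73.2 (SD, n = 5) in Il10-/- Tnfr1-/- and Il10-/- colons. The log2 fold change of -1.22 was about the size of that of Duox2, with a larger error (SE 0.611, limma, unadjusted p = 0.0692, adjusted p = 0.535). It was -0.79 without Il10-/- replicate 6, and -0.51 with the smooth muscle marker score as a covariate. Under that covariate Duox2 was at -0.95.

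Duox1, the second dual oxidase, was close to 0 in all libraries, at 0.0267 to 0.143 in Il10-/- Tnfr1-/- colons and 0.109 to 0.174 in Il10-/- colons. It passed 1 in 0 libraries and was not tested. In all, 5 of the 6 Il10-/- Tnfr1-/- values were below every Il10-/- value, at levels too low for a fold change on this scale to be read.

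Duoxa1, the maturation factor of DUOX1, was also low, at 0.212, 0.409 and 1.15 (lowest, median and highest) in Il10-/- Tnfr1-/- colons and at 2.03, 0.372, 1.05, 1.43 and 5.48 in Il10-/- colons. It was over 1 in 5 libraries, fewer than the filter asked. In a fit of all genes without the filter its log2 fold change was -1.12 (SE 0.426, limma, unadjusted p = 0.0227, adjusted p = 0.693). Of the Duoxa1 signal, 89.0% was on 1 transcript, Duoxa1-203, which starts at position 122306848, inside the gene. Of its 2467 exonic bases, 682 lie over exons of Duoxa2 on the opposite strand. The other Duoxa1 transcripts share 0 bases with Duoxa2 exons, and their means were 0 to 0.154 in either genotype. Il10-/- Tnfr1-/- replicate 6 and Il10-/- replicate 6, the highest libraries of their genotype for Duoxa2, were also the highest for Duoxa1. The library kit marked strand, per the labels, but no source used here states the strand setting of the counting, so reads of Duoxa1-203 and of Duoxa2 cannot be told apart in the overlap.

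**Figure D2:**
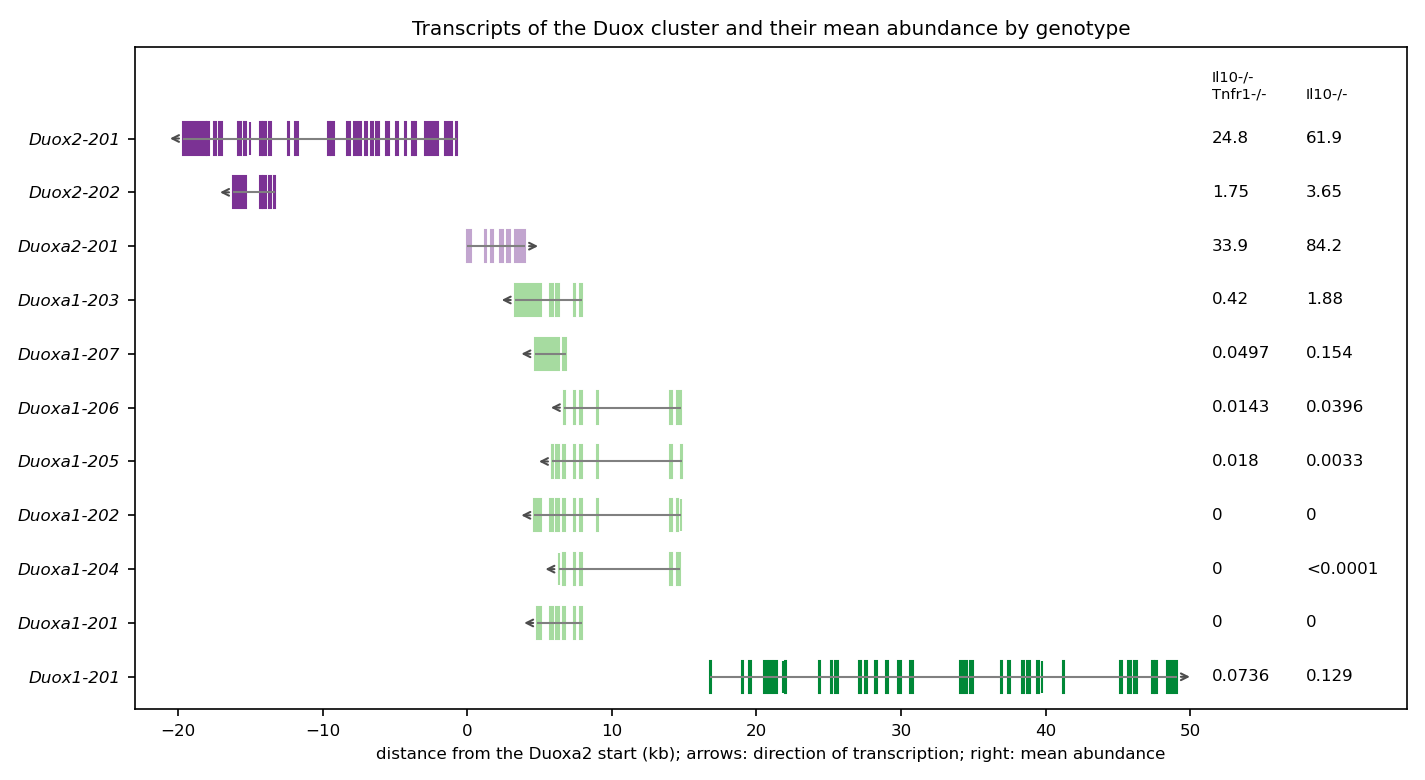
Exons (boxes) of the GENCODE M21 transcripts of the Duox cluster by distance in kb from the Duoxa2 start, with the direction of transcription (arrows) and the mean abundance in Il10-/- Tnfr1-/- and Il10-/- libraries at the right. Duox2-201 and Duoxa2-201 carry the signal of the cluster, and the Duoxa1 transcripts that start next to Duox1 have means near 0.

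Nos2, inducible nitric oxide synthase (chr11:78920787-78960254, plus strand), showed the largest difference among the members tested. It was at 1.84, 5.15 and 6.59 (lowest, median and highest) in Il10-/- Tnfr1-/- colons and at 38.2, 3.69, 7.22, 37.0 and 28.0 in Il10-/- replicates 1, 2, 3, 5 and 6. Of the Il10-/- colons, 3 were several fold above every Il10-/- Tnfr1-/- colon, 1 was just above and replicate 2 lay inside their range. Means were 4.79 ± 1.66 (SD, n = 6) in Il10-/- Tnfr1-/- colons and 22.8 ± 16.4 (SD, n = 5) in Il10-/- colons. The log2 fold change was -1.75 (SE 0.566, limma, unadjusted p = 0.00926, adjusted p = 0.535), and -2.25 without Il10-/- replicate 2, with a limma adjusted p of 0.173. Nos2-201 carried 99.6% of the Nos2 signal.

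Markers of neutrophils were examined beside these genes. Of the 10 markers 4 were tested (S100a8, S100a9, Ly6g and Ltf), all 4 had a lower mean in Il10-/- Tnfr1-/- colons, 3 had an unadjusted limma p under 0.05 and 0 passed the adjusted threshold. Among the markers not tested, Retnlg averaged 0.547 in Il10-/- Tnfr1-/- colons and 0.286 in Il10-/- colons, and Mpo and Elane were under 0.1 in every library. The summed level of the list was 6.85 to 99.9 in Il10-/- Tnfr1-/- colons and 35.6 to 539 in Il10-/- colons, and a large part of it was often Ly6g, with 438 of the 539 in Il10-/- replicate 1 and 140 of the 158 in Il10-/- replicate 3. The sums in Il10-/- replicates 1, 2, 3, 5 and 6 were 539, 35.6, 158, 104 and 433. The tested markers differed in their order over these replicates. S100a8 was at 58.2, 13.6, 7.74, 18.8 and 170, and S100a9 at 21.7, 9.59, 7.08, 1.84 and 56.1. Ltf was at 17.7, 0.799, 1.36, 5.83 and 32.4, and Ly6g at 438, 10.6, 140, 76.6 and 172. The summed macrophage markers were at 102 to 268 in Il10-/- Tnfr1-/- colons and 103 to 197 in Il10-/- colons. Of 11 macrophage markers tested 10 had a higher mean in Il10-/- Tnfr1-/- colons, with C1qc at an unadjusted limma p of 0.0434, and 1 a lower, Cd14 (-0.92, limma, unadjusted p = 0.0182), which was at 88.7 in Il10-/- replicate 1. The part of neutrophil or macrophage RNA in the differences of Nos2 and Duox2 was not tested. Among the libraries whose titles start with the digit 1, whose meaning the labels do not give, 2 were Il10-/- Tnfr1-/- and 3 were Il10-/-. There the log2 fold changes were -1.69 for Nos2, -1.33 for Duox2 and -1.32 for Duoxa2, and an exact test of 2 against 3 cannot give a p under 0.1.

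Nox1, the superoxide-making enzyme (chrX:134086421-134221956, minus strand), had a higher mean in Il10-/- Tnfr1-/- colons, 12.5 ± 7.08 (SD, n = 6), than in Il10-/- colons, 9.01 ± 7.49 (SD, n = 5). It was at 6.10, 11.2 and 25.1 (lowest, median and highest) in Il10-/- Tnfr1-/- colons and at 20.9, 11.2, 2.72, 7.16 and 3.04 in Il10-/- colons. The 2 lowest colons were Il10-/- replicates 3 and 6, and Il10-/- replicate 1 was the second highest of all 11. Its difference on the log2 scale was 0.65 (SE 0.505, limma, adjusted p = 0.586), smaller than the spread among mice of each genotype. It was 0.35 without Il10-/- replicate 3, 0.38 without Il10-/- replicate 6, 0.42 without Il10-/- Tnfr1-/- replicate 3 and 1.03 without Il10-/- replicate 1 (limma, adjusted p = 0.26 and unadjusted p = 0.043 for the last). The sum of 4 Y-linked genes was 0.881 in Il10-/- Tnfr1-/- replicate 1 and 1.23 and 1.44 in Il10-/- replicates 3 and 6, against 73.7 or more in the other libraries, and with sex called from it in the model the difference of Nox1 was 0.37. It was 0.40 with the first digit of the title and 0.43 with the smooth muscle score in the model. Nox1-201 carried 96.0% of the Nox1 signal.

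Noxo1, the organizer of the NOX1 complex (chr17:24696234-24700529, plus strand), was at 148, 204 and 248 (lowest, median and highest) in Il10-/- Tnfr1-/- colons and at 228, 220.5, 295, 341 and 557 in Il10-/- colons. Of the Il10-/- Tnfr1-/- colons, 4 were below every Il10-/- colon, and Il10-/- replicate 6 stood highest. The means were 200.8 ± 36.7 (SD, n = 6) and 328 ± 137 (SD, n = 5) in Il10-/- Tnfr1-/- and Il10-/- colons, a log2 fold change of -0.64 (SE 0.245, limma, unadjusted p = 0.0221, adjusted p = 0.535).

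The split of Noxo1 among its overlapping transcripts is that of the deposited abundances and was not tested. These are per length, so short transcripts weigh more than they would in reads. On this scale the Noxo1 sum was mostly not coding RNA. The 1 coding transcript, Noxo1-201 (2238 nt), carried 2.8 to 6.56% of it in Il10-/- Tnfr1-/- colons and 2.23 to 3.69% in Il10-/- colons. Processed transcripts without a reading frame carried 64.3 to 68.7% in Il10-/- Tnfr1-/- colons and 60.3 to 78.4% in Il10-/- colons, and retained-intron transcripts 18.8 to 29.4% and 19.4 to 28.6% in Il10-/- Tnfr1-/- and Il10-/- colons. The largest single share, 44.7% over all libraries, was on Noxo1-206, which is 475 nt long. Noxo1-206 was at 45.5 to 108 in Il10-/- Tnfr1-/- colons and 57.4 to 382 in Il10-/- colons. The coding transcript alone was at 5.52 to 11.2 in Il10-/- Tnfr1-/- colons and 7.90 to 12.4 in Il10-/- colons. Its log2 fold change was -0.31, with a limma adjusted p of 0.55 among genes summed over coding transcripts. Among titles that start with 1 the difference of the Noxo1 sum was -0.10.

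**Figure D3:**
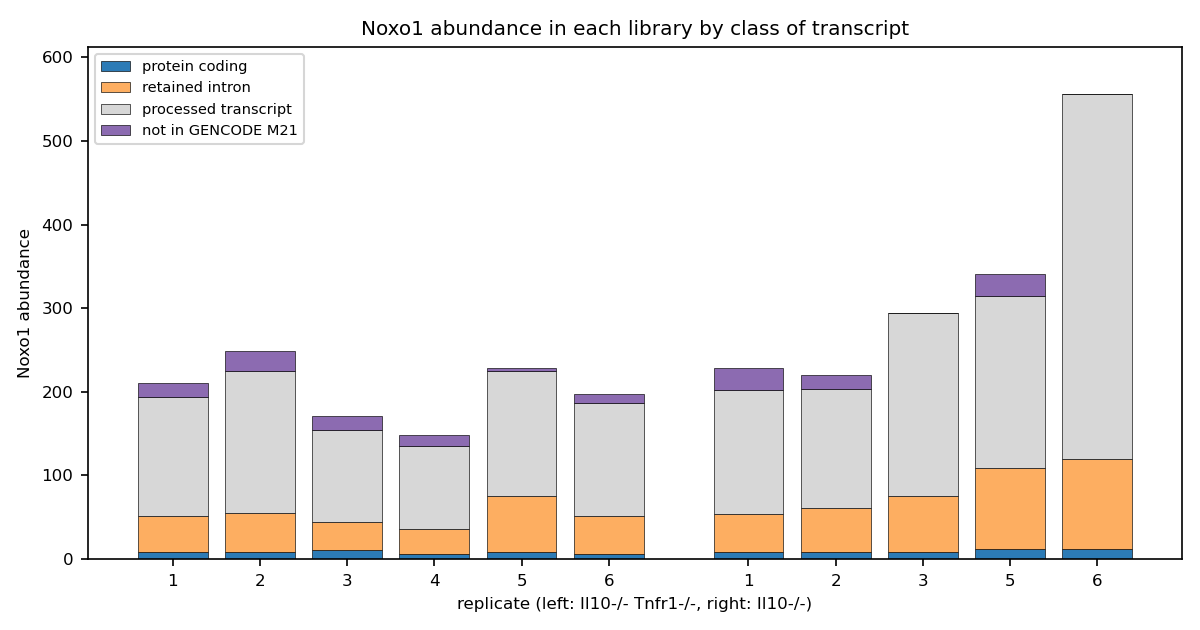
Noxo1 abundance (deposited scale) in each library, stacked by transcript class, with 6 Il10-/- Tnfr1-/- libraries at the left and 5 Il10-/- libraries at the right. The coding transcript is the thin layer at the base (5.52 to 12.4), and the processed transcripts make the tall bar of Il10-/- replicate 6.

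Noxa1, the activator of the complex (chr2:25085667-25095149, minus strand), had means of 28.3 ± 8.21 (SD, n = 6) in Il10-/- Tnfr1-/- colons and 30.0 ± 8.10 (SD, n = 5) in Il10-/- colons. Its values were 17.9, 26.9 and 41.1 (lowest, median and highest) in Il10-/- Tnfr1-/- colons and 18.0, 29.9, 30.9, 40.9 and 30.2 in Il10-/- colons, so the ranges nearly coincided. The log2 fold change was -0.09 (SE 0.238, limma, adjusted p = 0.877), and its sign turned under 5 alternatives other than leaving out a replicate, to between 0.055 and 0.15. Of these, the first digit as a covariate and titles that start with 1 give the same fold change from the same libraries.

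Cyba, which encodes p22phox (chr8:122424776-122432930, minus strand), was at 92.1, 164 and 217 (lowest, median and highest) in Il10-/- Tnfr1-/- colons and at 101, 145, 222, 192 and 359 in Il10-/- colons. Il10-/- replicate 6 was the highest, as it was for Noxo1, Duoxa2 and Duox2. Its log2 fold change was -0.31 (SE 0.335, limma, adjusted p = 0.68). It turned to 0.15 with the smooth muscle score in the model and to 0.34 with the first digit of the title. It was -0.07 without Il10-/- replicate 6, -0.17 and -0.19 without Il10-/- Tnfr1-/- replicates 3 and 4, and -0.53 without Il10-/- replicate 1. Of the 2 coding transcripts, the lesser, Cyba-202, varied most, at 4.06 to 34.4 in Il10-/- Tnfr1-/- colons and 7.50 to 111 in Il10-/- colons.

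Cybb, which encodes NOX2 (chrX:9435252-9487771, minus strand), was over 1 in 4 libraries and was not tested under the filter. It was at 0.484, 0.946 and 4.08 (lowest, median and highest) in Il10-/- Tnfr1-/- colons and at 1.80, 0.772, 0.383, 0.428 and 0.197 in Il10-/- colons. The 3 highest libraries were Il10-/- Tnfr1-/- replicates 3 and 2 and Il10-/- replicate 1. They were also the 3 highest for the summed macrophage markers (268, 210 and 197) and the summed B and T cell markers (59.7, 111 and 21.6). A large part of the macrophage sum was Lyz2 in Il10-/- Tnfr1-/- replicates 3 and 2 (114 and 93.3). In Il10-/- replicate 1 it was Cd14 (88.7). The markers did not all follow the sum, and in Il10-/- replicate 1 Itgam was highest of all libraries (2.015) and Cd68 lowest (4.93). The same 3 libraries were highest for Ncf1, which encodes a partner of NOX2 (5.52, 5.28 and 2.72). Without the filter the log2 fold change of Cybb was 0.77 (SE 0.463, limma, adjusted p = 0.693).

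**Figure D4:**
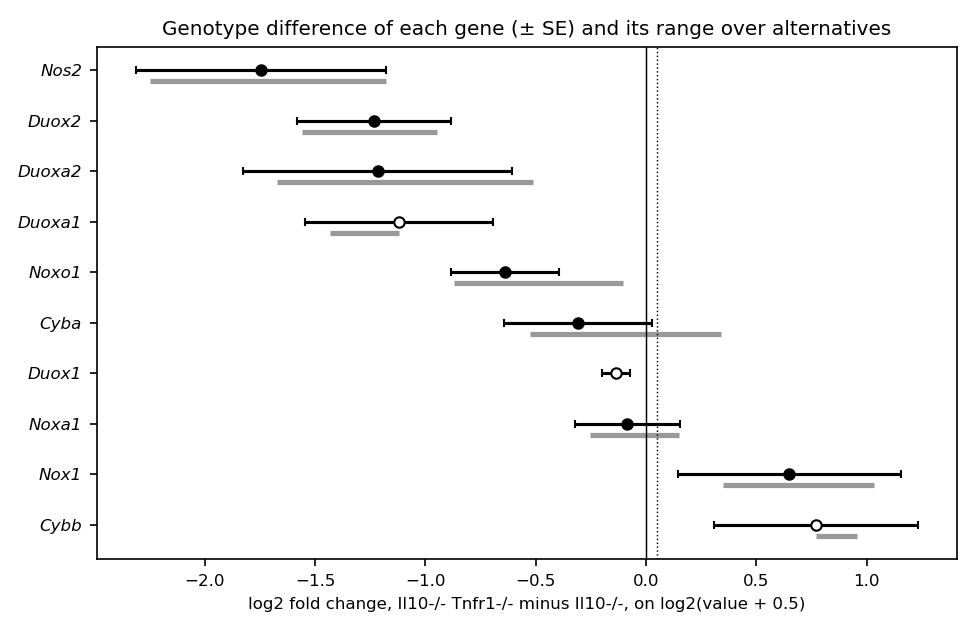
Log2 fold change of each gene, Il10-/- Tnfr1-/- minus Il10-/-, with its standard error (points and bars, open where the gene did not pass the filter and the fit was made without it). Grey bars span the alternatives run for that gene, and the dotted line is the median of all genes (0.05). Nos2, Duox2, Duoxa2 and Noxo1 stay below 0 across their alternatives, and Noxa1 and Cyba cross 0.

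Whether an enzyme and its partner varied together was asked over the 11 mice after the mean of each genotype was removed, for 6 pairs with exact permutation within genotype over 86400 arrangements and Benjamini-Hochberg adjustment over the 6. Duox2 and Duoxa2 varied together (Pearson r = 0.936, exact p = 0.000127, adjusted p = 0.000764; Spearman rho = 0.927, exact p = 0.000417, adjusted p = 0.0025). Without Il10-/- Tnfr1-/- replicate 6 and Il10-/- replicate 2, the mice farthest from the median of Duox2, r was 0.846. With genotype left in, r was 0.92 and rho 0.909 (permutation, p = 0.00012 and 0.00031, adjusted p = 0.00072 and 0.00186). Duoxa2 ranked 2 among 13292 tested genes in its correlation with Duox2. With the epithelial markers set equal in every library, r was 0.753 with an adjusted exact p of 0.126.

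In contrast, Nox1 was low where Cyba was high. Nox1 and Cyba had r = -0.805 (exact p = 0.00815, adjusted p = 0.0244) and rho = -0.8 (exact p = 0.00935, adjusted p = 0.0281), and r = -0.774 without Il10-/- replicates 1 and 3. With genotype left in, r was -0.82 and rho -0.827 (permutation, p = 0.00213 and 0.00256, adjusted p = 0.00639 and 0.00768). This correlation no longer passed in 10 of the 24 alternatives run for it. Its r was -0.367 with epithelial markers set equal, and -0.760, -0.783, -0.715 and -0.793 without Il10-/- Tnfr1-/- replicates 3 and 6 and Il10-/- replicates 1 and 2, taken singly. Among 13292 genes, 95.5% correlated with Nox1 more positively than Cyba did. Nox1 with Noxa1 gave r = -0.634 (exact p = 0.0458, adjusted p = 0.0916; rho = -0.673, exact p = 0.0269, adjusted p = 0.0538), and -0.513 without the same pair of mice. Nox1 with Noxo1 gave r = -0.613 (exact p = 0.0909, adjusted p = 0.136; rho = -0.545, exact p = 0.142, adjusted p = 0.154), and -0.655 without them. With genotype left in, r was -0.629 for Noxa1 and -0.665 for Noxo1 (permutation, adjusted p = 0.057 and 0.0456). Il10-/- replicate 6, highest for Cyba (359), had the largest library sum (1378971) and 55.1% of transcripts at 0. Il10-/- Tnfr1-/- replicate 3, lowest for Cyba (92.1) and highest for Nox1 (25.1), had the smallest sum (804109) and 42.1% at 0. With equal totals r of Nox1 and Cyba was -0.833 (adjusted exact p = 0.0149). The part of such differences between libraries in these correlations was not tested.

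Cybb and Cyba, the NOX2 pair, gave r = -0.507 (exact p = 0.12, adjusted p = 0.144; rho = -0.555, exact p = 0.0894, adjusted p = 0.134), and -0.829 without Il10-/- Tnfr1-/- replicates 2 and 3, the libraries highest for Cybb. Duox1 and Duoxa1 gave r = -0.297 (exact p = 0.297, adjusted p = 0.297; rho = -0.455, exact p = 0.154, adjusted p = 0.154), at levels near 0 for Duox1. It was -0.47 without Il10-/- Tnfr1-/- replicate 2 and Il10-/- replicate 1. With genotype left in, r was -0.557 for the NOX2 pair and 0.253 for Duox1 and Duoxa1 (permutation, adjusted p = 0.092 and 0.455).

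**Figure D5:**
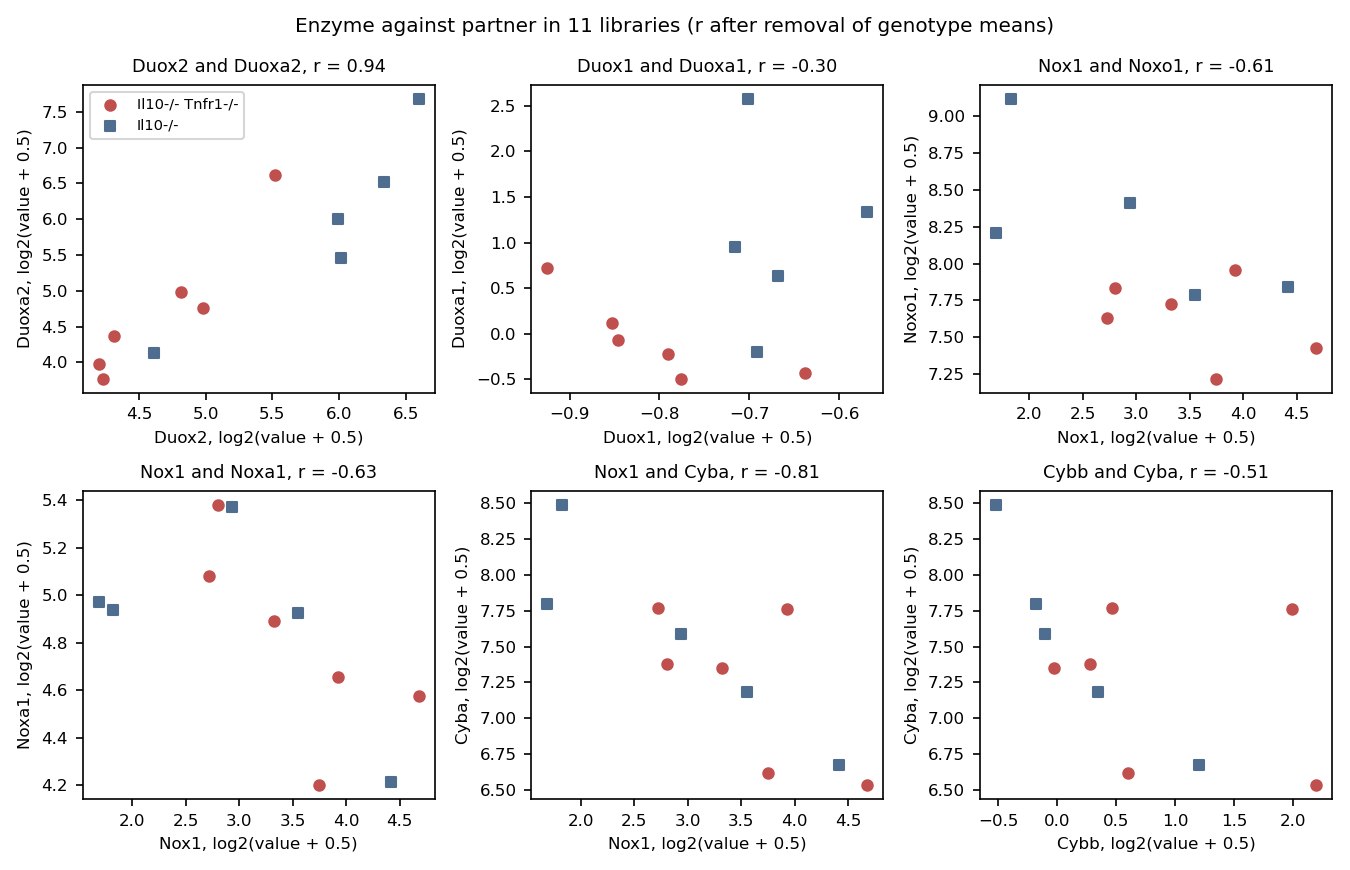
Enzyme (x axis) against partner (y axis) in each colon, both as log2(value + 0.5), for 6 pairs, with circles for 6 Il10-/- Tnfr1-/- and squares for 5 Il10-/- mice. Duox2 and Duoxa2 lie along a rising line in both genotypes (r = 0.94 after removal of genotype means), and the 3 Nox1 panels run downward (r = -0.61, -0.63 and -0.81).

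The ratio of enzyme to partner was compared between genotypes, since 1 scaling factor per library cancels in it apart from the pseudocount. The log2 ratio of Duox2 to Duoxa2 averaged -0.07 ± 0.55 (SD, n = 6) in Il10-/- Tnfr1-/- colons and -0.05 ± 0.66 (SD, n = 5) in Il10-/- colons, a difference of -0.02 (exact permutation test, p = 0.961, adjusted p = 0.961 over 6 pairs). Replicate 6 of each genotype had the lowest ratio, at -1.10 in Il10-/- Tnfr1-/- and -1.09 in Il10-/- colons. Of the other ratios, Duox1 to Duoxa1 was higher in Il10-/- Tnfr1-/- colons by 0.98 (exact permutation test, p = 0.0606, adjusted p = 0.364). Duox1 was at 0.0267 to 0.174 over all libraries, below the pseudocount of 0.5. This ratio therefore mostly followed Duoxa1 alone, and the scaling of a library does not cancel in it. Nox1 to Noxo1 averaged -4.10 ± 0.88 (SD, n = 6) in Il10-/- Tnfr1-/- colons and -5.39 ± 1.59 (SD, n = 5) in Il10-/- colons, a difference of 1.29 (exact permutation test, p = 0.13, adjusted p = 0.368). The differences were 0.74 for Nox1 to Noxa1, 0.96 for Nox1 to Cyba and 1.08 for Cybb to Cyba (exact permutation tests, adjusted p = 0.436, 0.436 and 0.368). None of the 6 passed the threshold, and the values depended on single libraries and covariates. With a replicate left out the difference ranged over 0.457 to 1.56 for Nox1 to Cyba, 0.414 to 1.29 for Nox1 to Noxa1, 0.814 to 1.78 for Nox1 to Noxo1, 0.674 to 1.56 for Cybb to Cyba and 0.597 to 1.29 for Duox1 to Duoxa1. In titles that start with 1 alone, 2 Il10-/- Tnfr1-/- against 3 Il10-/- libraries, the differences were 0.063, 0.333, 0.507 and 0.188 for the first 4 of these. With the smooth muscle score in the model they were 0.271, 0.277, 0.743 and 0.469. The design's smallest exact p is 0.00216 over 462 assignments.

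Across the group, members outside the pairs also varied together after removal of genotype means, which is given as a description over 11 libraries that share their scaling. Duoxa1 followed Duoxa2 (r = 0.904) and Duox2 (r = 0.808). Duoxa1 did not pass the filter, and 89.0% of its signal was on the transcript that overlaps Duoxa2 exons. There the reads of Duoxa1 and Duoxa2 cannot be told apart. Nos2 followed Duox2 (r = 0.73) and Duoxa2 (r = 0.71). Noxo1 followed Cyba (r = 0.866), and Nox1 followed Cybb (r = 0.804). The Noxo1 sum was mostly not coding RNA, and Cybb was low and did not pass the filter. Nos2 had r = -0.01 with Cyba and 0.12 with Nox1.

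The genes most like each member by the same r, among 12344 tested genes with a mean of at least 1, were as follows. For Duox2 they were Zg16 (0.938), Duoxa2 (0.936) and Baiap2 (0.934), and for Duoxa2 they were Tbc1d20 (0.981), Agpat4 (0.94) and Duox2. Nos2 was most like Map3k6 (0.893), Zc3h12a (0.884) and Bcl6 (0.873). Nox1 was most like Smug1 (0.984), Uevld (0.974) and Mettl4 (0.972), and Noxa1 most like Sult1a1 (0.963), BC051142 (0.925) and Zbtb32 (0.923). Noxo1 was most like Bfar (0.984), Ndufb11 (0.964) and Mrps16 (0.964), and Cyba most like Abhd11os (0.995), Pdzd3 (0.994) and Aup1 (0.987).

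Genes that remove the products of these oxidases were compared from a list of 17, all tested. In all, 10 were lower and 7 higher in Il10-/- Tnfr1-/- colons, with a median log2 fold change of -0.10, and 1 had an unadjusted limma p under 0.05. That gene was Gpx2, the glutathione peroxidase of the gut epithelium, which reduces hydrogen peroxide. It was at 314 to 545 in Il10-/- Tnfr1-/- colons and at 1879, 561, 569, 737 and 2548 in Il10-/- colons, so the genotypes did not overlap. Its means were 409 ± 84.2 (SD, n = 6) in Il10-/- Tnfr1-/- colons and 1259 ± 906 (SD, n = 5) in Il10-/- colons, a log2 fold change of -1.35 (SE 0.393, limma, unadjusted p = 0.0048, adjusted p = 0.535). Txn1, thioredoxin, was next, at -0.39 (limma, unadjusted p = 0.0737, adjusted p = 0.535).

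Of 11 genes of the NRF2 response, which is known to answer oxidants, 10 were tested, with 7 higher and 3 lower in Il10-/- Tnfr1-/- colons and a median of 0.13. The 3 with an unadjusted limma p under 0.05 were higher: Nfe2l2, the gene of NRF2 itself (0.65), Nqo1, a quinone reductase (0.68), and Gclc, a subunit of the enzyme that starts glutathione synthesis (0.60), each with a limma adjusted p of 0.535. Over all 13293 genes tested, 4.81% were higher at that unadjusted level. Nfe2l2 averaged 87.3 ± 21.4 (SD, n = 6) in Il10-/- Tnfr1-/- colons and 56.5 ± 17.7 (SD, n = 5) in Il10-/- colons. None of the lists held a gene that passed the adjusted threshold.

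Ncf1, which encodes the organizer of NOX2, was at 0.41 on the log2 scale (limma, adjusted p = 0.665). Nox3 was under 0.1 in every library. Of 12 genes for the other nitric oxide synthases and for supply of arginine and cofactor, 9 were tested, with 5 higher, 4 lower and 0 at an unadjusted limma p under 0.05. Spr, a reductase of cofactor synthesis, was at -0.31 and Nos1, the neuronal synthase, at 0.83. Among 5 haem peroxidases only Pxdn was tested, at 0.81 (limma, adjusted p = 0.536), and Mpo and Epx, which use hydrogen peroxide in neutrophils and eosinophils, were under 0.1 in every library.

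In the authors' deposited table, which rests on a set of libraries that no source used here states, the log2 folds were -1.39 for Duox2-201, -1.46 for Duoxa2-201, -2.30 for Duoxa1-203 and -2.36 for Nos2-201. The same authors' deposited table gave 0.44 for Nox1-201, -1.08 for Noxo1-206 and -0.23 for the coding Noxo1-201. The q-value in the authors' deposited table was 0.684 for each of these transcripts.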

How the data were processed

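Total RNA of whole colons was made into stranded mRNA libraries and read from one end, per the labels' protocols. CASAVA, kallisto, sleuth and mm10 are named in the submitters' processing notes, with no versions or settings. The table deposited by the authors lists an abundance signal per transcript and library, which is not a count. Against the authors' deposited mean on a natural log scale, it carried a slope of 1.14 on log length over 13947 transcripts, so it was taken as an abundance per length. Its p-value, q-value and log2 fold columns were computed by the authors, per the file headers. Of 12 labelled samples 11 have a column. For Il10-/- replicate 4 none matched, and 1 column of per-sample values matched no sample and was not used.

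Repeated rows (866) were dropped, and 113193 transcripts were summed to 35688 genes by gene identifier. Of the transcripts, 109294 (96.56%) matched GENCODE M21. Genes over 1 in at least 6 libraries were fitted with limma 3.58.1 (R 4.3.3, version 1.17.8 of data.table, trend and robust moderation) on log2(value + 0.5), a scale that understates the change of low genes. Two-sided p-values were adjusted by Benjamini-Hochberg at a threshold of 0.05, and the fit was tested on simulated data. Correlations and ratios used exact permutation, and 100000 permutations with genotype left in. Whether mice were littermates is not given, so p-values measure the spread between these samples. Alternatives were other pseudocounts, filters, scalings, covariates, transcript choices and left-out replicates. The members and lists were chosen with earlier results of these data known. Named genes are the members, both targeted genes, the 2 of smallest p in each pathway list, and the 3 genes of highest within-genotype r with each member tested. One gene that this rule names, and the counts of its list, are not reported here. Gclc, Nox3, Mpo, Epx, Elane, C1qc, Cd14, Retnlg and the tested neutrophil markers were named after their values were seen. Promoter sequences are from RefSeq on GRCm38.p6. No protein sequence was used here.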

Additional observations from a re-analysis of the deposited data

Results flagged for a closer look

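Nos2 in Il10-/- Tnfr1-/- replicate 1 was at 1.84, the lowest of its 6 libraries, where the other 5 lay between 4.30 and 6.59. Its gap to the next library was 0.649 of the range of the 6, over Dixon's critical value for that number. This was the 1 sample marked in 32 groups of libraries examined in this way, of which chance marks about 1 in 20. Without it the log2 fold change of Nos2 was -1.53.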

How the results depend on the processing

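No paired analysis was possible because the labels give no replicate numbers and the numbers used here only follow sample order. The count of members past the adjusted threshold was 0 under every alternative run, and so was that of enzyme to partner ratios. The count over all genes was 1 with quantile normalization and 0 to 2 when each replicate was left out, with 2 reached without Il10-/- replicate 2. Of the partner pairs, 2 passed in the main analysis. This was 1 with median-ratio size factors, quantile normalization, the first digit of the title or sex (from Y-linked genes, added after seeing the data) as a covariate, 0 with epithelial markers set equal, and 1 to 3 with a replicate left out. Nos2 ranged over -1.91 to -1.18 and Duox2 over -1.33 to -0.95 in the other alternatives, and over -2.25 to -1.45 and -1.56 to -1.06 with a replicate left out. Noxo1 ranged over -0.87 to -0.10 and Nox1 over 0.37 to 0.83, and with a replicate left out over -0.76 to -0.43 and 0.35 to 1.03, while Cyba was -0.53 to -0.07. The log2 fold change of Noxa1 turned to 0.055 with equal totals, 0.10 with epithelial markers set equal, 0.071 with the first digit as a covariate or with titles that start with 1, and 0.15 with the smooth muscle score, and was -0.25 to 0.036 with a replicate left out. That of Cyba turned to 0.34 with the first digit or titles that start with 1 and 0.15 with the smooth muscle score. The correlation of Duox1 with Duoxa1 turned to 0.0408 with quantile normalization and 0.262 with the first digit. That of Nox1 with Noxo1 turned to 0.202 with epithelial markers set equal and 0.0179 with coding transcripts (added after seeing the data), and that of Nox1 with Noxa1 to 0.173 with epithelial markers set equal. Pairs that passed in an alternative only were Nox1 with Noxo1 for leading transcripts (r = -0.832, adjusted exact p = 0.021), Nox1 with Noxa1 without Il10-/- replicate 5 (r = -0.715, adjusted exact p = 0.0339) and Cybb with Cyba without Il10-/- Tnfr1-/- replicate 2 (r = -0.788, adjusted exact p = 0.00889). The ratio difference of Duox2 to Duoxa2 was -0.277 to 0.19 with a replicate left out, and -0.435 with the smooth muscle score in the model. The cause of these changes was not tested. The median of all genes was 0.18 with equal totals and 0.23 with epithelial markers set equal, against 0.05. Correlations were not computed in titles that start with 1, which are 5 samples. The planned covariate from Xist and Y-linked genes was not run because Xist is not among the genes used here. The depth of the libraries is unknown, which limits what can be read from Duox1, Duoxa1 and Cybb.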
